A study of Mus musculus with 3 samples.

Results

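Dendritic cells that had migrated from MC903-treated ear skin to the draining lymph node were compared by a red reporter (RFP) of past Siglech-iCre transgene activity, among cells negative for a reporter of OX40L. The comparison set 982 BFP-RFP+ cells against 1012 BFP-RFP- cells, 1994 of the 5019 cells kept from 4 sorted populations. A cell was assigned to a population when 1 hashtag held 80% or more of its hashtag UMIs (unique molecular identifiers, each standing for 1 captured molecule). Cells under 500 genes or 1000 mRNA UMIs, or with over 10% of their UMIs from mitochondrial genes, were left out. All cells came from mice of 1 genotype, which carried a Siglech-iCre transgene (Tg/0), a red reporter at ROSA26 behind a LoxP-STOP-LoxP cassette, and a Tnfsf4 allele knocked in for the blue reporter BFP (KI/+). All of the mice were treated with MC903 on days 0, 2 and 4, and the ear-draining nodes were taken on day 5, so every cell is from treated skin drainage and there is no untreated group. The sort took B220- MHCII high CD11c low-to-intermediate XCR1- CD326- cells, a gate for migratory cells that are neither Langerhans cells nor type 1 conventional dendritic cells. Each population is 1 sample of 1 capture. There are no replicates, so no test was made, and every interval below is an exact 95% interval for counting error only, which says nothing of the spread between mice, sorts or captures. Intervals of UMI levels and their ratios count each UMI as independent, so they also leave out the spread between cells.

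Siglech encodes a sialic acid-binding lectin of plasmacytoid dendritic cells, the cell type known for its type I interferon output, and is also expressed by some precursors and transitional forms. Because Cre removes the stop cassette for good, RFP marks cells that expressed the transgene at any time and the descendants of such cells, whatever they express when sorted. Dendritic cells that leave the skin raise CCR7 and MHC class II and present antigen to T cells in the node. MC903, also known as calcipotriol, mimics vitamin D and provokes an inflammation of the skin rich in type 2 cytokines, and OX40L, the product of Tnfsf4, is a TNF family ligand that costimulates T cells.

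The populations were told apart by antibody-borne oligonucleotides of 15 bases. The hashtags of both populations are shown because every assignment rests on them, written 5′ to 3′ with capitals at the 13 positions where they differ.
Hashtag of BFP-RFP+ cells: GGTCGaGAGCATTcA
Hashtag of BFP-RFP- cells: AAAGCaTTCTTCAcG
The 4 antibody tags read surface proteins on the same cells, and their barcodes are given in capitals throughout because all of their bases identify the antibody.
CD11b tag: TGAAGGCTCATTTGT
CD8a tag: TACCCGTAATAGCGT
CD172a tag: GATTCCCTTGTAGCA
CD301b tag: CTTGCCTTGCGATTT
Any 2 of the 8 barcodes in the capture differed at 7 to 14 positions. By the labels, the CD11b and CD8a antibodies and the hashtags carried TotalSeq-A oligonucleotides, whereas the CD172a antibody was of the TotalSeq-C and the CD301b antibody of the TotalSeq-B format. Levels of different tags are therefore not compared with each other as amounts of protein.

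The kept cells held 15746616 mRNA UMIs in BFP-RFP+ and 14874356 in BFP-RFP- cells, with medians of 14330 and 13897 UMIs and 3229.5 and 3139.5 genes per cell. The filters removed 88 of 1070 assigned BFP-RFP+ barcodes (8.22%, 6.65 to 10.0%) and 160 of 1172 BFP-RFP- barcodes (13.7%, 11.7 to 15.8%). The red reporter checked the sort: its mRNA feature tdRFP had 331 UMIs in BFP-RFP+ cells, or 21.0 UMIs per 1000000 mRNA UMIs (CPM), against 10 UMIs or 0.672 CPM in BFP-RFP- cells. A tdRFP UMI was seen in 22.2% (19.6 to 24.9%) of BFP-RFP+ cells and 0.692% (0.279 to 1.42%) of BFP-RFP- cells. Siglech itself was nearly silent in both, with 25 UMIs in 12 of the BFP-RFP+ cells and 1 UMI in BFP-RFP- cells. Although both populations were sorted as BFP-negative, BFP mRNA stood at 7.18 CPM (5.91 to 8.63) in BFP-RFP+ and 2.35 CPM (1.64 to 3.27) in BFP-RFP- cells, and Tnfsf4 at 53.0 (49.4 to 56.7) and 19.8 CPM (17.6 to 22.2). Reporter-negative cells thus differed in residual Tnfsf4 mRNA, and its part in the results below was not tested.

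Most cells of both populations carried the mRNA of migratory dendritic cells. Clustering of the 1994 cells, made without the reporters, Tnfsf4, Siglech and every gene that differed by 1 or more on the log2 scale between the populations, gave 17 clusters, of which 4 were called other cell types from their markers. The other 13, called the dendritic cell clusters here and numbered from 0 by size, held 888 BFP-RFP+ cells (90.4%, 88.4 to 92.2%) and 944 BFP-RFP- cells (93.3%, 91.6 to 94.7%). In them all 15 migratory dendritic cell markers were measured, and none differed by 0.5 or more on the log2 scale. Ccr7, the receptor that guides cells to the node, stood at 1368 and 1580 CPM in BFP-RFP+ and BFP-RFP- cells, and Fscn1, the actin bundler of mature dendritic cells, at 2419 and 2163 CPM. Of the types that the gate was meant to leave out, some marker genes were close to absent, with 2 and 3 UMIs of Xcr1, 7 and 13 of Clec9a, and 2 and 1 of Cd207. Other markers of those types were present. The 10 markers of type 1 conventional dendritic cells summed to 485 and 447 CPM, and the 5 of Langerhans cells to 71.4 and 119 CPM. Cd8a, Cadm1, Wdfy4 and Naaa of the type 1 list were raised in cluster 7, but so were markers of other lists. Among these were Clec10a, Mgl2, Cd209a and Cd24a of the CD11b-positive type 2 list and Runx2, Atp1b1 and Lag3 of the plasmacytoid list. Cd79b and Ebf1 of the B cell list were raised there too. Cluster 7 also had the highest median depth of all clusters, 23937 UMIs per cell. T and NK cell-like cells numbered 50 in BFP-RFP+ and 35 in BFP-RFP-, and B cell-like cells 10 and 9. The 2 monocyte and macrophage-like clusters held 34 and 24 cells but were filled differently, cluster 14 with 13 BFP-RFP+ and 23 BFP-RFP- cells and cluster 15 with 21 and 1. Cluster 15 had a median of only 3123 UMIs per cell and Lyz2 and Apoe among its leading genes. Unless all kept cells are named, values below are from the dendritic cell clusters, and each pair of values gives BFP-RFP+ cells and then BFP-RFP- cells.

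Within the dendritic cell clusters the populations were mixed in all 13 clusters but not evenly. Cluster 8, led by Dll4 and Thy1 among other genes, held 91 BFP-RFP+ cells (9.27% of that population, 7.53 to 11.3%) and 33 BFP-RFP- cells (3.26%, 2.26 to 4.55%). Cluster 7, led by Cd209a, Cd209d and Mgl2, held 88 (8.96%, 7.25 to 10.9%) and 39 (3.85%, 2.75 to 5.23%), and cluster 4, led by Dkk2, held 98 and 64. The opposite held for cluster 11, led by Aldh1a2, a retinoic acid-forming enzyme, with 18 (1.83%, 1.09 to 2.88%) against 75 cells (7.41%, 5.87 to 9.20%). Cluster 12, with the interferon-inducible genes Ifitm1 and Isg15 among its leaders, held 23 and 66 cells, and cluster 9, led by Cxcl10, held 41 and 82. BFP-RFP+ cells were therefore spread towards clusters 4, 7 and 8 and BFP-RFP- cells towards clusters 9, 11 and 12. Some leading genes, Dll4 and Thy1 among them, did not shape the clustering because they differed by 1 or more and had been left out of it.

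Across the transcriptome the populations were close, and the genes that differed were a small share. In all kept cells, 501 of 9612 genes with at least 100 UMIs (5.21%) were higher in BFP-RFP+ cells by 0.5 or more in log2 ratio, and 375 (3.9%) were lower by as much. In the dendritic cell clusters the same counts were 464 of 9279 genes (5%) higher and 345 (3.72%) lower, with a median ratio of -0.01. These shares are the background against which the gene groups below are set. The interval of the ratio lay above 0 for 1590 genes and below 0 for 1780, and 120 and 39 genes were higher and lower by 1 or more. The farthest genes rested on very few cells. All 101 UMIs of Fabp6 lay in BFP-RFP+ cells, and the 5 cells with the most held 100% of them, while of 1730 UMIs of the antibody gene Ighg3 BFP-RFP- cells held 1727, the top 5 cells 99.8%. Fabp6 and Ighg3 were picked after their values had been seen, and the named genes below come from a rule that left out genes so concentrated, or from the gene lists.

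**Figure D1:**
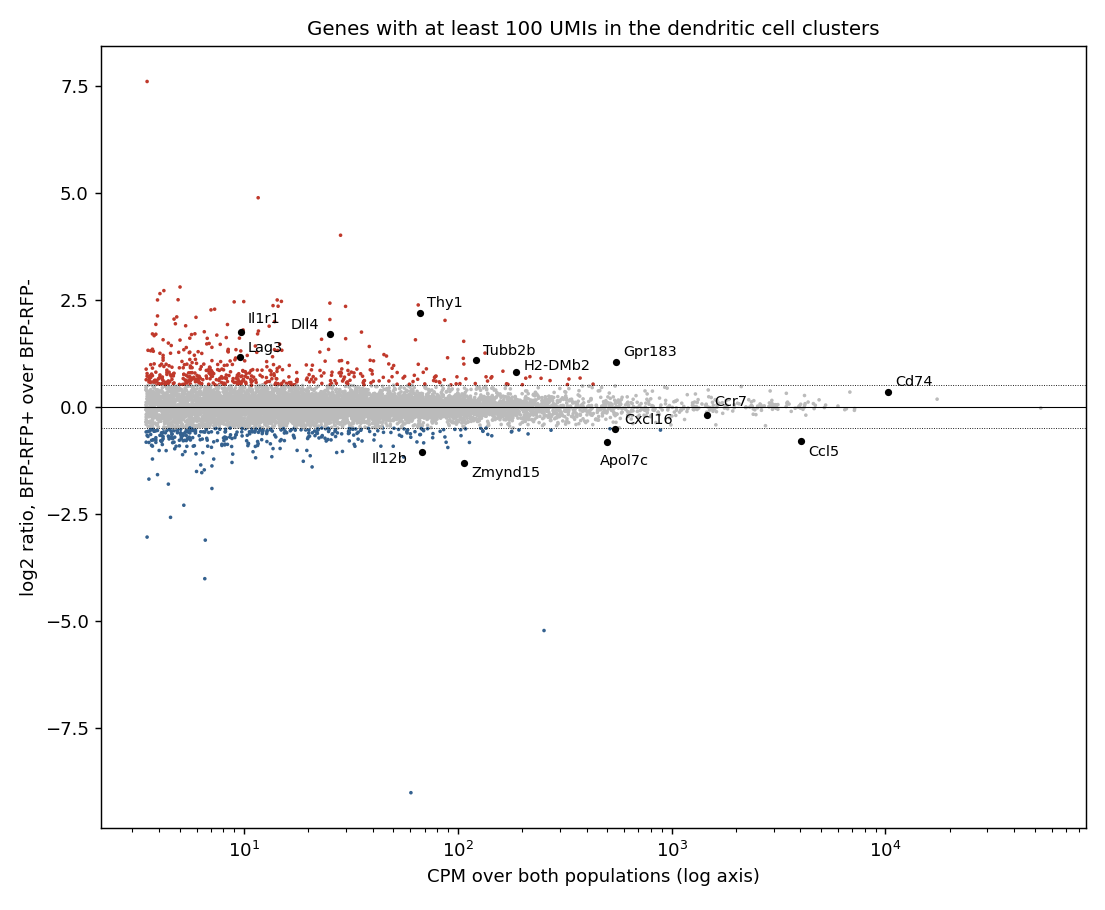
Each point is a gene with at least 100 UMIs in the dendritic cell clusters, by its CPM over both populations (log axis) and its log2 ratio of BFP-RFP+ to BFP-RFP- cells, red at 0.5 or more and blue at -0.5 or less (dotted lines). Named genes are black: Thy1 and Gpr183 lie above the upper line, Ccl5 and Zmynd15 below the lower line, and Ccr7 and Cd74 between the lines.

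The surface tags differed most for CD8a. The CD8a tag had a median of 65.5 UMIs per cell in BFP-RFP+ and 40 in BFP-RFP- dendritic cells, with middle ranges (25th to 75th percentile) of 33 to 163 and 27 to 82, and means of 134 and 83.1. The log2 ratio of the means was 0.68 (0.67 to 0.70) and that of the medians 0.71. CD8a is known on cDC1 of lymphoid organs and on part of the plasmacytoid cells, and the tag was higher in BFP-RFP+ cells over the whole range shown, although the distributions overlapped widely. CD11b, the integrin alpha chain that marks most migratory cDC2, had a median of 40 UMIs in BFP-RFP+ and 56 in BFP-RFP- cells, but nearly equal means of 131 and 133. The mean was lifted in BFP-RFP+ cells by few cells, as the top 5 held 14.8% of that tag's UMIs there and 3.87% in BFP-RFP- cells. In all kept cells the CD11b means were 171 and 147 and the medians 39 and 56, so mean and median differed in direction.

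CD172a, the SIRPα receptor of cDC2, had medians of 103 and 131.5 UMIs and means of 163 and 171. CD301b, a lectin of a dermal cDC2 subset, had medians of 33 and 44 and means of 114 and 144, and its log2 ratio was -0.33 (-0.34 to -0.32) by means and -0.42 by medians. The top 5 cells held 16.3% and 12.4% of the CD301b UMIs, a spread between cells that this interval leaves out. Lower medians for 3 of the 4 tags thus stood beside a higher median for CD8a in BFP-RFP+ dendritic cells. By the labels the cells received their tags before the populations were pooled, but the labels do not state whether each population was stained in its own tube. Unequal labelling and unequal protein therefore cannot be told apart. In the T and NK cell-like cluster, where CD172a and CD11b serve as background, the medians were 13 and 15 UMIs for CD172a and 11 in both populations for CD11b. There the CD8a medians were 49.5 and 57, in the opposite direction to that in the dendritic cells. In the B cell-like cluster the medians were 13.5 and 19 for CD172a, 11.5 and 9 for CD11b and 19.5 and 17 for CD8a. The CD301b medians were 24 and 26 in the T and NK cell-like cluster and 18 and 22 in the B cell-like cluster. CD172a and CD301b thus had the direction of the dendritic cells in both clusters, CD8a only in the B cell-like cluster and CD11b in neither.

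**Figure D2:**
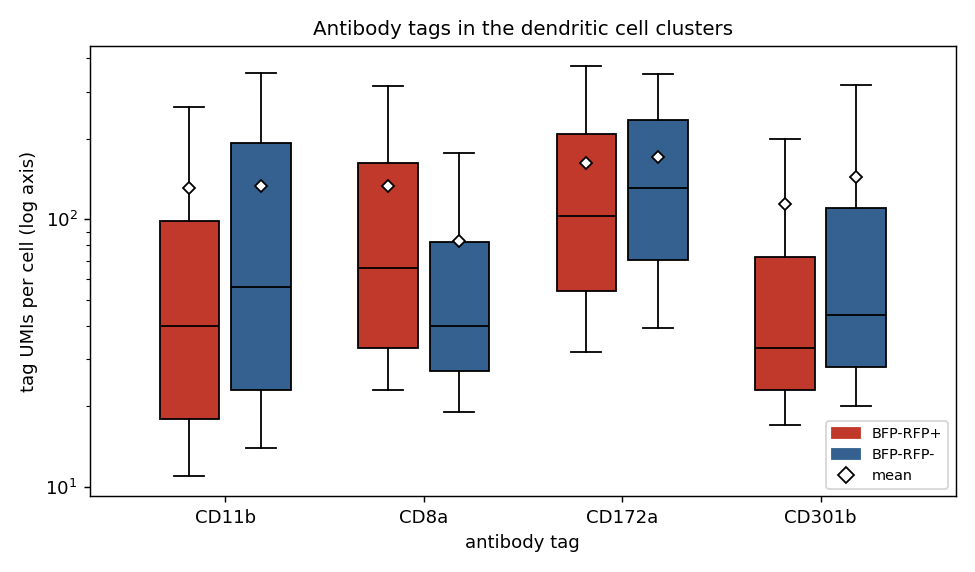
Boxes give the 25th to 75th percentile of tag UMIs per cell (log axis) in the dendritic cell clusters, lines the median, whiskers the 10th and 90th percentiles and diamonds the mean, for BFP-RFP+ (red, 888 cells) and BFP-RFP- cells (blue, 944 cells). The CD8a box is higher in BFP-RFP+ cells, and the medians of CD11b, CD172a and CD301b are lower.

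The tag differences were seen inside clusters as well as between them. The CD8a median was higher in BFP-RFP+ cells in 12 of 13 dendritic cell clusters, the CD301b median was lower in 13 of 13, the CD172a median lower in 11 and the CD11b median lower in 10. Some CD301b medians lay near the T and NK cell-like level, at 26 and 31 in cluster 4, 27 and 31 in cluster 8 and 23 and 28 in cluster 12. Others lay well above it, at 120 and 137 in cluster 3. The widest gaps of CD11b lay in cluster 8, with medians of 56 and 253, and in cluster 2, with 82 and 241.5. In the same 2 clusters CD8a went the other way, with medians of 131 and 53 in cluster 8 and of 84 and 34 in cluster 2. Cluster 2 held similar numbers of both populations, 78 and 90 cells. Cells whose CD8a tag exceeded their CD11b tag made up 64.5% of the BFP-RFP+ (573 of 888, 61.3 to 67.7%) and 46.6% of the BFP-RFP- dendritic cells (440 of 944, 43.4 to 49.9%). In cluster 2 they were 52.6% and 11.1%, in cluster 8 65.9% and 27.3%, and the share was higher in BFP-RFP+ cells in 12 of 13 clusters, cluster 12 being the exception with 13.0% and 27.3%. This comparison of tags within a cell was added after the values had been seen. It sets raw UMIs of 2 antibodies side by side, so the shares do not give cells with more CD8a than CD11b protein.

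**Figure D3:**
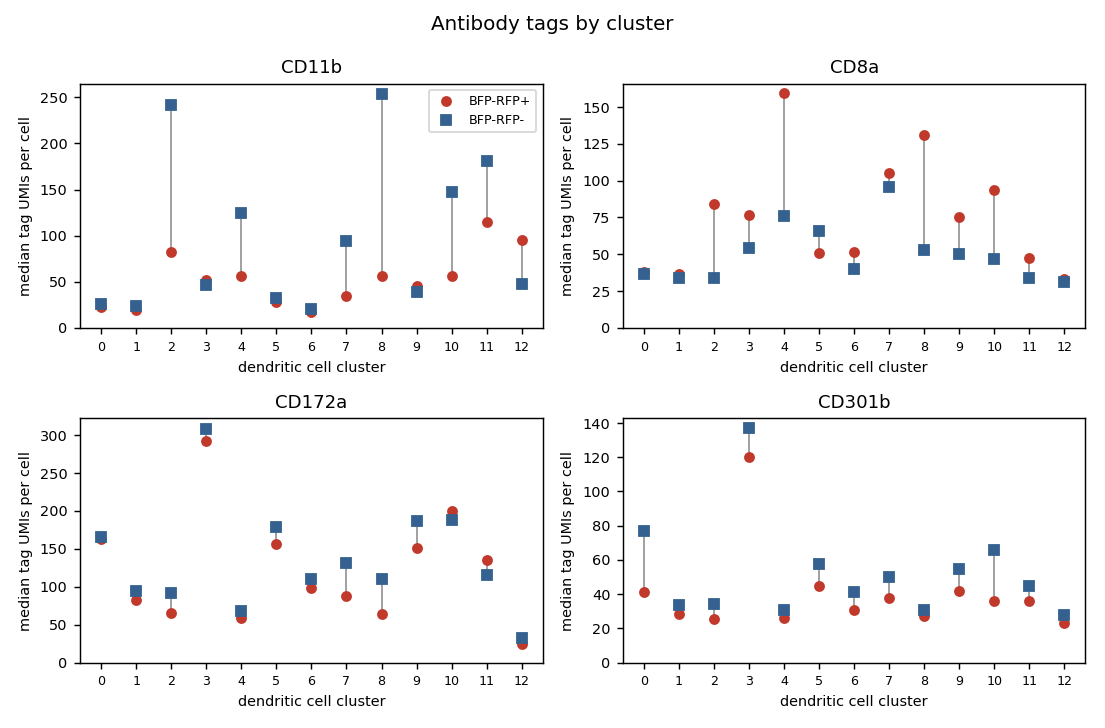
Median tag UMIs per cell in each of the 13 dendritic cell clusters, BFP-RFP+ (red circles) and BFP-RFP- (blue squares), joined by a line for each cluster. In clusters 2 and 8 CD11b is lower and CD8a higher in BFP-RFP+ cells, and CD301b is lower in BFP-RFP+ cells in every cluster.

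The genes of the 4 tagged proteins did not all follow their tags between the populations. Cd8a mRNA was higher in BFP-RFP+ cells, with 479 UMIs (32.6 CPM, 29.8 to 35.7) against 261 (18.7 CPM), a log2 ratio of 0.80 (0.58 to 1.03). In cluster 8 it stood at 55.8 and 8.87 CPM, but in cluster 7 at 74.7 and 121 CPM. Without cells that held a UMI of Cd3e, Cd3d, Cd3g or Trac the ratio of Cd8a was 0.85 (0.61 to 1.10). When each cluster was given the same weight in both populations, called the same cluster mix from here on, it was 0.15. Under that mix 260 of 9279 genes were higher by 0.5 or more and 214 were lower by as much. These counts, fewer than without the mix, are the background for list counts given under it. Genes that differed by less than 1, Cd8a among them, could shape the clusters. Ratios of such genes may therefore shrink under that mix in part by construction. Sirpa, which encodes CD172a, was at 105 and 102 CPM, a ratio of 0.04 (-0.07 to 0.14). Itgam, which encodes CD11b, had only 7 and 4 UMIs, too few to compare. Mgl2, which encodes CD301b, went against its tag between the populations. It had 651 UMIs (44.3 CPM) in BFP-RFP+ and 206 (14.7 CPM) in BFP-RFP- cells, a ratio of 1.59 (1.36 to 1.82). Of these Mgl2 UMIs 571 and 179 lay in cluster 7, at 245 and 161 CPM, where the CD301b medians were 38 and 50. With the same cluster mix the Mgl2 ratio was 0.70, and 35% of its UMIs were in 5 cells.

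Of single genes, Thy1 had the highest ratio among the 7183 that the rule for named genes ranked, those with at least 200 UMIs of which 5 cells held at most 10%. Thy1, which encodes the glycoprotein CD90 of T cells and of a part of other lineages, had 1573 UMIs (107 CPM, 102 to 113) in BFP-RFP+ and 327 UMIs (23.4 CPM, 20.9 to 26.1) in BFP-RFP- dendritic cells, a log2 ratio of 2.19 (2.02 to 2.37). It was concentrated in clusters 8, 7, 10 and 4, at 359 and 133, 229 and 110, 132 and 84.9, and 86.1 and 25 CPM, and was higher in BFP-RFP+ cells in all 6 clusters with at least 20 Thy1 UMIs. Thinned to 5000 UMIs per cell, which left 836 and 870 cells, a Thy1 UMI was found in 18.5% and 3.79% of cells (25.7% and 7.52% before thinning, at median depths of 14814 and 14039 UMIs). In the B cell-like cells it was found in 0 of 19 cells, which at 3 counts of the total allows up to 15.8% of cells with a UMI, at median depths of 4875 and 5565, and 74% and 80% of the T and NK cell-like cells did. Without cells holding a CD3 or Trac UMI the ratio of Thy1 was 2.27 (2.09 to 2.46), and with the same cluster mix it was 1.24.

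BFP-RFP+ cells with a Thy1 UMI after thinning also carried another tag profile. Their 155 cells had medians of 130 UMIs for CD8a and 63 for CD172a, against 62 and 122 in the 681 BFP-RFP+ cells without. In BFP-RFP- cells the 33 cells with Thy1 had medians of 78 for CD8a and 113 for CD172a, against 41 and 143 in the 837 without. CD11b did not share that pattern, with 42 and 41 in BFP-RFP+ cells with and without Thy1 but 140 and 56 in BFP-RFP- cells. The CD8a and CD172a pattern was not particular to Thy1. BFP-RFP+ cells with and without Dll4 had medians of 122.5 and 66 for CD8a and 66 and 113 for CD172a. With and without Gpr183 these were 96 and 48 for CD8a and 91 and 123 for CD172a. In BFP-RFP- cells the CD8a medians were 39 and 42 with and without Dll4, and 52 and 37 with and without Gpr183. Depth per cell was equal by the thinning of mRNA, not of tags, and these splits were also chosen after the values had been seen.

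Gpr183, which encodes EBI2, the oxysterol receptor that positions dendritic cells in lymphoid tissue, came behind only Pla1a and Tubb2b among the 2010 genes with at least 2000 UMIs that the naming rule ranked. It stood at 735 CPM (721 to 749) and 356 CPM (346 to 366), a log2 ratio of 1.04 (1.00 to 1.09), and was higher in BFP-RFP+ cells in 12 of 13 clusters. Its level differed strongly between clusters, from 41.2 and 17.0 CPM in cluster 1 to 1736 and 1266 CPM in cluster 8, and only cluster 11 had the opposite order, with 137 and 161 CPM. After thinning, 59.0% and 39.9% of cells held a UMI. Under the same cluster mix the ratio of Gpr183 was 0.49.

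The other genes named as higher included regulators, enzymes and surface molecules. Pla1a, a phospholipase, stood at 122 and 55.4 CPM (ratio 1.14, 1.02 to 1.27), and Tubb2b, a beta tubulin, at 163 and 76.9 CPM (1.08, 0.98 to 1.19). Adgrl1, an adhesion receptor, had 176 and 66 UMIs (1.34, 0.93 to 1.77). Lag3, an inhibitory MHC class II ligand found on T cells and plasmacytoid cells, had 193 and 82 UMIs (1.16, 0.78 to 1.55) and was higher in 5 of the 5 clusters with at least 20 UMIs. Tesc, a calcium-binding protein, stood at 54.2 and 25.8 CPM, and Gch1, the first enzyme of tetrahydrobiopterin synthesis, at 62.9 and 31.5 CPM. Hopx, a small homeodomain protein, stood at 91.8 and 49.8 CPM (0.88, 0.75 to 1.02) and was higher in 12 of 13 clusters, with a ratio of 0.75 under the same cluster mix. Napsa, an aspartic protease, Prnp, the prion protein, Cdk6, a cell cycle kinase, Ier2, an immediate early gene, and Eif5a, a translation factor, had ratios of 0.83, 0.70, 0.70, 0.70 and 0.70. At the same cluster mix these 5 ratios were 0.36, 0.50, 0.30, 0.48 and 0.33, all under 0.5 before rounding. The rest of the higher genes named by the rule were Mex3a, Lyrm1, Coq2, Ddah2, Grap and AA467197, with ratios from 0.96 to 1.07.

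Among the genes named as lower, Ccl5 carried the most UMIs. Ccl5, a chemokine that attracts T cells and monocytes, stood at 2960 CPM (2933 to 2988) in BFP-RFP+ and 5173 CPM (5136 to 5211) in BFP-RFP- cells, a ratio of -0.81 (-0.82 to -0.79). It was lower in 10 of 13 clusters, but in clusters 7, 8 and 10 it was higher, at 494 and 223 CPM in cluster 7. Given the same cluster mix the ratio of Ccl5 was -0.30. Zmynd15, a zinc finger protein, stood at 61.9 and 154 CPM (-1.32, -1.43 to -1.21) and reached 77.3 and 334 CPM in cluster 2. Its ratio with the same cluster mix was -0.63.

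Further genes named as lower had smaller UMI sums than Ccl5. Slc7a11, the cystine transporter, stood at 81.9 and 146 CPM (-0.84, -0.94 to -0.73), Ltc4s, the leukotriene C4 synthase, at 63.9 and 114 CPM (-0.83, -0.95 to -0.72), and Plaat3, a phospholipase, at 108 and 170 CPM (-0.65). With the same cluster mix Ltc4s stood at -0.39 and Plaat3 at -0.15. Galc, a lysosomal galactosidase, had 192 and 372 UMIs (-1.02) and Cpt1a, the carnitine transferase of fatty acid oxidation, 82 and 144 UMIs (-0.88). Aif1, an actin-binding protein of macrophages and dendritic cells, stood at 61.6 and 119 CPM (-0.95), but at -0.18 with the same cluster mix. Apol7c, an apolipoprotein L family gene, stood at 364 and 643 CPM (-0.82), and at -0.16 with the same cluster mix. Slamf1, a self-binding costimulatory receptor, had a ratio of -0.68, Vsir, the inhibitory ligand VISTA, of -0.91, and Irak3, a brake on Toll-like receptor signalling, of -0.91. The other genes named as lower were Exoc3l4, Shisa9, M1ap, Apol10b, Ehbp1, Pde3b, Adam22, Itpr2, Flrt3, Tbc1d9, Adam19 and H2-M2, with ratios from -1.22 to -0.64. Of the 24 genes named in each direction, 15 higher and 13 lower genes were still past 0.5 in size with the same cluster mix, and none changed direction. Besides those given above, the genes no longer past 0.5 were H2-DMb2 (0.34), Ciita (0.26), Icosl (0.44), Slamf1 (-0.39), Apol10b (-0.10), Flrt3 (-0.41), Tbc1d9 (-0.47), Adam19 (-0.42) and H2-M2 (-0.19).

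**Figure D4:**
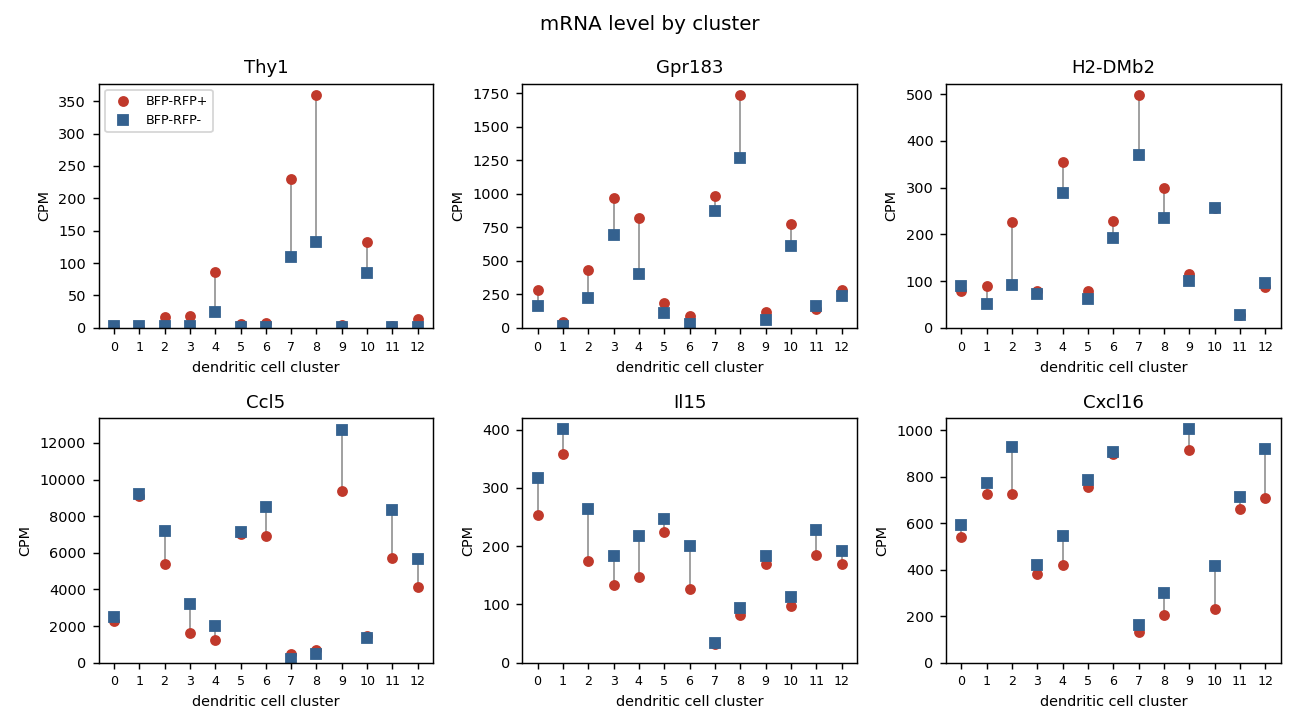
CPM of 6 genes in each dendritic cell cluster, BFP-RFP+ (red circles) and BFP-RFP- (blue squares). Thy1 is highest in clusters 4, 7, 8 and 10 and higher in BFP-RFP+ cells there, Gpr183 is higher in all but cluster 11, and Il15 and Cxcl16 are lower in all 13 clusters.

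Of 13 measured genes for class II antigen presentation 6 were higher in BFP-RFP+ cells by 0.5 or more and none lower, with a list median of 0.47 against -0.01 over all genes. Under the same cluster mix none of the 13 was past 0.5, and the list median was 0.05. H2-DMb2 and H2-DMa, chains of the peptide exchanger DM, stood at 238 and 136 CPM (0.81, 0.73 to 0.89) and at 254 and 160 CPM (0.66, 0.59 to 0.74). Ciita, the master regulator of class II transcription, stood at 122 and 75.2 CPM (0.70, 0.59 to 0.81). H2-DMb1 and the DO chains H2-Oa and H2-Ob had ratios of 0.52, 0.53 and 0.54. The class II chain H2-Ab1 had a ratio of 0.47, and Cd74, the invariant chain, stood at 11413 and 8993 CPM (0.34, 0.33 to 0.35). At the same cluster mix H2-DMa stood at 0.21 and H2-Ob at -0.14, so that H2-Ob changed sign. In cluster 2 H2-DMb2 nevertheless stood at 227 and 90.8 CPM. MHC class I processing, by contrast, had none of 16 genes past 0.5 in either direction and a median of -0.07.

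Of 7 TNF family ligand genes 5 were higher and 1 lower, with a median of 0.75. Given the same cluster mix 2 were higher and none lower, with a median of 0.29. Besides Tnfsf4 (55.4 and 20.9 CPM, 1.40, 1.21 to 1.60), the gene behind the reporter used in the sort, these were Tnfsf9, the ligand of 4-1BB (86.2 and 43.4 CPM, 0.99, 0.85 to 1.13), Ltb (0.81), Cd70, the ligand of CD27 (0.75), and Lta (0.62, 0.05 to 1.21). Tnfsf12 was lower, at -0.79 (-1.29 to -0.30). With the same cluster mix Tnfsf4 stood at 0.75, Ltb at 0.29, Cd70 at 0.27 and Tnfsf12 at -0.36. Of 14 genes of the B7 and SLAM families 5 were higher and 1 lower, with a median of 0.28, but with the same cluster mix Nectin2 (0.57) was the only one past 0.5 and the median was 0.14. Icosl, the ligand of ICOS, stood at 95.3 and 59.5 CPM (0.68, 0.56 to 0.81) and was higher in 12 of 13 clusters. Cd200, an inhibitory ligand, stood at 235 and 164 CPM (0.51), and Nectin2, Slamf6 and Ly9 at 0.96, 0.77 and 0.50. The main B7 ligands differed less, with Cd86 at 1420 and 1158 CPM (0.29) and Cd80 at 740 and 620 CPM (0.26). Of 13 TNF receptors Tnfrsf21, Tnfrsf11b and Tnfrsf13b were higher, at 0.99, 0.96 and 0.85, but at 0.55, 0.02 and 0.17 with the same cluster mix.

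Markers of plasmacytoid cells were partly higher in BFP-RFP+ cells, but so were those of conventional dendritic cells. Of 5 measured type 1 markers 3 were higher by 0.5 or more and none lower, with a median of 0.80. Of 7 measured CD11b-positive type 2 markers 4 were higher and 1 lower, with a median of 0.54. These medians were -0.02 and -0.06 with the same cluster mix. The 1 measured Langerhans cell marker was lower. Of the 14 plasmacytoid markers 9 had at least 100 UMIs, of which 5 were higher by 0.5 or more and 1 lower, with a median of 0.53. Under the same cluster mix 2 were higher and 1 lower, with a median of 0.15, and Tcf4 stood at 0.23, Runx2 at 0.35 and Atp1b1 at 1.14. Tcf4, the E protein that holds plasmacytoid identity, stood at 504 and 350 CPM (0.53, 0.47 to 0.58), Runx2, which supports their exit from marrow, at 324 and 213 CPM (0.61, 0.54 to 0.67), and Atp1b1, a sodium pump subunit, at 53.9 and 16.1 CPM (1.74, 1.53 to 1.96). Lag3 was among them, and Ly6d (0.88), of which 86% of UMIs lay in 5 cells. Spib stood at 0.41 and Bst2 at 0.07, whereas Ccr9 was lower, at -0.58 (-1.11 to -0.06), and Irf8 stood at -0.39. Among markers below 100 UMIs, 3 were also lopsided, with 24 and 1 UMIs of Siglech, 34 and 2 of Cox6a2, and 66 and 19 of Pacsin1. Of 12 plasmacytoid transcription regulators, 2 were higher and 1 lower, Ikzf2 at -1.54 with 53% of its UMIs in 5 cells and at 0.44 in all kept cells, and the list median was 0.09.

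Of 15 regulators of conventional dendritic cells 1 was higher and 2 were lower, with a list median of -0.31. At the same cluster mix none was past 0.5 and the median was -0.18. Bcl6 stood at -0.64 (-0.84 to -0.43), and Rbpj, the transcription factor of Notch signalling, at 143 and 215 CPM (-0.59, -0.67 to -0.51). Id2, which opposes E proteins such as TCF4, stood at 850 and 1143 CPM (-0.43, -0.46 to -0.39), which did not reach 0.5. Irf4, which cDC2 need for migration, was higher at 142 and 98.0 CPM (0.54, 0.44 to 0.64). In the Notch pathway Dll4, a Notch ligand, stood at 38.1 and 11.7 CPM (1.69, 1.44 to 1.96), higher in all 6 clusters with at least 20 UMIs, while Maml2, a coactivator, stood at -0.63, and the other 4 measured genes lay between. Given the same cluster mix Dll4 stood at 0.95, Id2 at -0.15, Rbpj at -0.22, Bcl6 at -0.40, Irf4 at 0.39 and Maml2 at -0.29.

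Of 15 chemokine genes 5 were lower and 3 higher, with a median of -0.24. With the same cluster mix 2 were lower and 3 higher, with a median of -0.02. Besides Ccl5, the gene Cxcl16, whose membrane-bound product binds CXCR6 on T cells, stood at 448 and 647 CPM (-0.53, -0.58 to -0.48). Ccl9 (-0.82), Cxcl2 (-0.79) and Ccl6 (-0.79) had few UMIs, with 27%, 32% and 33% of them in 5 cells, and without those cells Cxcl2 stood at 0.23. Under the same cluster mix Ccl6 stood at -0.02. The 3 higher genes, Ccl24, Ccl4 and Ccl8, rested on few cells, the top 5 holding 86%, 91% and 51% of their UMIs. Without its top 5 cells Ccl24 stood at -0.38, and in all kept cells Ccl4 stood at -0.19. Ccl17 and Ccl22, ligands of CCR4 that migratory dendritic cells make in quantity, stood at 498 and 468 CPM (0.09) and at 1946 and 1980 CPM (-0.02). Among 12 guidance receptors Gpr183 was the only one higher, and Cxcr4 (-0.54, -0.69 to -0.40), Gpr65 (-0.50) and Ccr9 were lower. At the same cluster mix Cxcr4 stood at -0.29 and Gpr65 at -0.21.

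Of 12 interleukins and related cytokines 2 were higher and 4 lower. Il15, which sustains memory T cells and NK cells, stood at 144 CPM (138 to 150) and 215 CPM (208 to 223), a ratio of -0.58 (-0.66 to -0.50), and its presenting receptor chain Il15ra at 158 and 230 CPM (-0.55, -0.62 to -0.47). Il12b, the shared subunit of interleukins 12 and 23, stood at 44.2 and 92.8 CPM (-1.07, -1.21 to -0.93), with 25% of its UMIs in 5 cells. Osm and Csf1 stood at -0.54 and -0.70, and Il6 (0.84, 0.50 to 1.20) and Tgfb2 (0.58) were higher. Of 31 cytokine receptors 5 were higher, led by Il1r1 (216 and 61 UMIs, 1.74, 1.34 to 2.19), Kit (0.80) and Il9r (35.1 and 21.3 CPM, 0.72, 0.51 to 0.93), and 2 lower, Il15ra and Il21r (-0.52). Of 20 STAT targets Bcl2, Socs3 and Cish were higher, at 1.56, 0.76 and 0.70, but at 1.01, 0.37 and 0.25 with the same cluster mix. That mix also brought Il15ra to -0.23, Il21r to -0.28, Osm to -0.35 and Tgfb2 to 0.27.

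Il15 and Cxcl16 had a lower CPM in BFP-RFP+ cells in every dendritic cell cluster, by unequal amounts. Of 4561 genes with at least 20 UMIs in each of the 13 dendritic cell clusters, these were the only 2, from 31.7 and 34.3 CPM in cluster 7 to 358 and 401 CPM in cluster 1 for Il15, and from 133 and 160 CPM in cluster 7 to 918 and 1008 CPM in cluster 9 for Cxcl16. The log2 ratio ran from -0.10 to -0.67 over the clusters for Il15 and from -0.01 to -0.84 for Cxcl16, and for either gene its interval lay below 0 in 5 clusters and spanned 0 in 8. Given the same cluster mix Il15 stood at -0.33 and Cxcl16 at -0.23. Higher in all 13 were 5 genes: Blvrb, biliverdin reductase B (30.3 and 20.8 CPM, 0.54, 0.33 to 0.76), Arhgdib (257 and 210 CPM, 0.29), H2-M3, which presents formylated peptides (93.4 and 77.3 CPM, 0.27), Atp6v1g1, a proton pump subunit (288 and 244 CPM, 0.24), and Zbtb18, a transcriptional repressor (64.2 and 56.3 CPM, 0.19). These 7 were found by searching all genes, after the values had been seen.

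Most of the lectin genes that were higher rested on few cells. Of 13 C-type lectins and Siglecs 6 were higher and 1 lower, with a median of 0.40, but -0.09 with the same cluster mix. Clec10a (2.45), Mgl2, Cd209e (1.45), Cd209d (1.06) and Cd209a (0.54) had from 35% to 58% of their UMIs in 5 cells, and with the same cluster mix Clec10a stood at 1.499, Cd209e at 0.47, Cd209d at 0.15 and Cd209a at -0.45. Siglecg, an inhibitory Siglec, was spread more evenly, at 69.6 and 42.6 CPM (0.71, 0.56 to 0.85) and higher in 12 of 13 clusters, though at 0.31 with the same cluster mix. Clec12a, an inhibitory receptor of myeloid cells, was lower at -1.30 (-1.72 to -0.91).

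Adhesion and neuronal genes included large ratios on few UMIs. Of 14 neuronal and synaptic genes 6 were higher and 2 lower, with a median of 0.25. Nrgn, a calmodulin-binding protein of neurons, stood at 24.9 and 4.51 CPM (2.46, 2.08 to 2.88). Of 22 integrins and adhesion molecules Thy1, Cadm1 (2.03), Ncam1 (1.41, 73% of UMIs in 5 cells) and Itgb7 (0.71) were higher, and Itga1 (-1.20) and Pecam1 (-0.78, but 0.01 without 5 cells) lower. Nrp1, a semaphorin coreceptor, stood at 50.5 and 28.3 CPM (0.84), and Plxnc1, a plexin, at 426 and 609 CPM (-0.52, -0.56 to -0.47). Dkk2, a Wnt antagonist, stood at 141 and 70.8 CPM (0.99, 0.89 to 1.11). With the same cluster mix Nrp1 stood at 0.15, Dkk2 at 0.40, Plxnc1 at -0.31, Itgb7 at 0.37, Ncam1 at 0.44 and Nrgn at 1.63.

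In the other lists few genes passed 0.5 in either direction. None of 19 genes of NF-kB subunits and feedback passed 0.5, with a median of -0.01. Of 28 cytoskeletal genes of migratory cells 1 was higher and 1 lower, and of 16 BCL2 family genes 1 was higher. Of 13 type I interferon response genes none was higher and 2 were lower, Mx1 at -0.76 (-0.95 to -0.57) and Zbp1 at -0.67, with a median of -0.20. Under the same cluster mix Mx1 stood at -0.36 and Zbp1 at -0.37. Of 24 genes of cholesterol and fatty acid metabolism 2 were higher, Apoe and Nr1h3, and 2 lower, Abca1 and Lss. Of 21 heat shock and immediate early genes Ier2 was higher, and Atf3 and Dnajb4 lower, and of 15 proliferation genes 2 were higher and 1 lower. With the same cluster mix none of the 15 proliferation genes was higher and 5 were lower, with a median of 0.008.

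**Figure D5:**
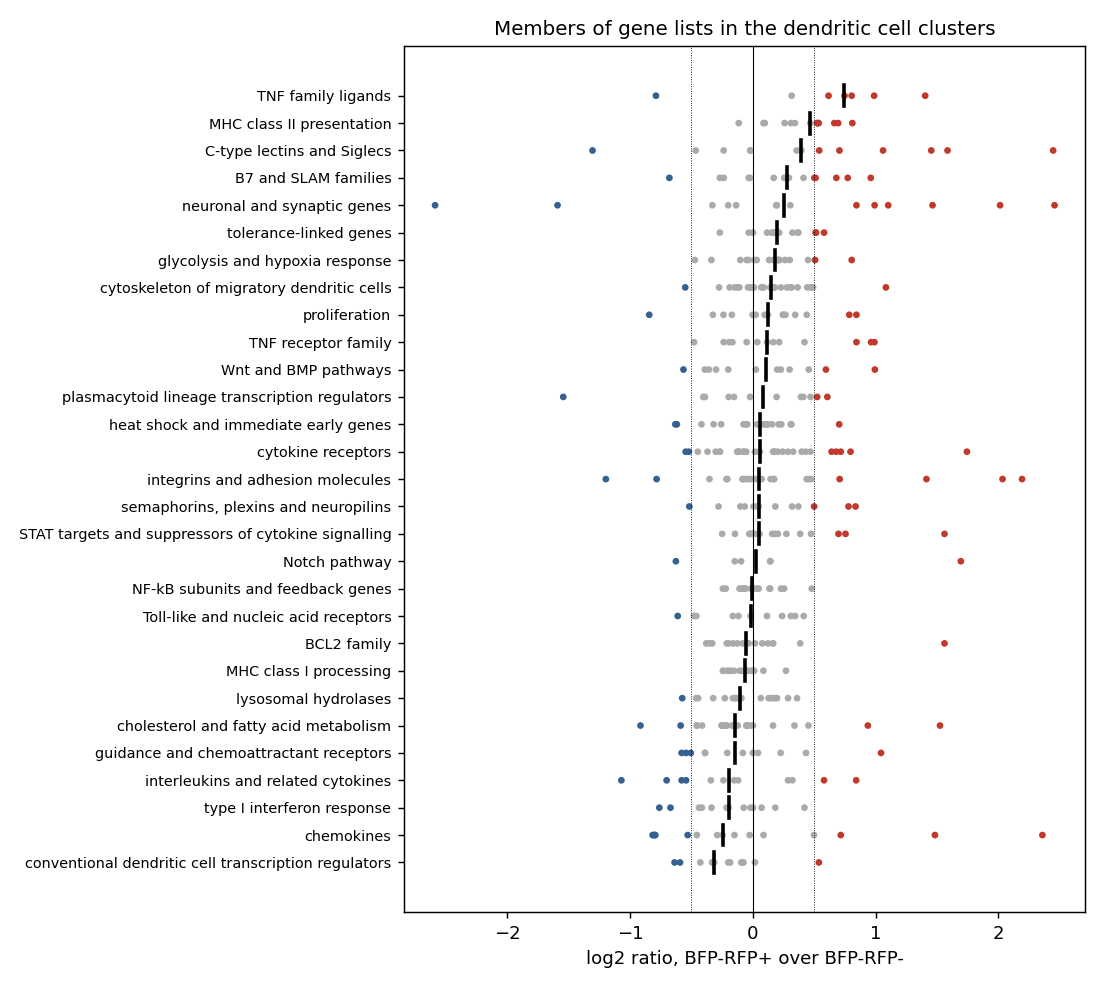
Each row is a gene list, each point a member with at least 100 UMIs in the dendritic cell clusters, placed by its log2 ratio of BFP-RFP+ to BFP-RFP- cells (red at 0.5 or more, blue at -0.5 or less), and each black bar the list median. The medians run from 0.75 for TNF family ligands to -0.31 for conventional dendritic cell regulators.

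RNA of other cell types was also unequal in the dendritic cell clusters. The 16 monocyte and macrophage markers summed to 314 and 127 CPM, mostly from Lyz2 (108 and 20.7 CPM, 42% of UMIs in 5 cells, and a log2 ratio of -0.11 in all kept cells) and Apoe (156 and 54.3 CPM), with F13a1 at 0 in BFP-RFP+ cells and Fcgr1 and Mertk at 0 in BFP-RFP- cells. Defining markers were scarce, with 33 and 18 UMIs of C1qa and 30 and 22 of C1qb, and Adgre1 was lower at -0.71. The 17 T and NK cell markers summed to 338 and 289 CPM, with Ncr1 and Klrb1c at 0 in BFP-RFP+ cells, and Cd3e had 33 and 23 UMIs. Of the 7 with at least 100 UMIs Trbc1 (0.91, but -0.31 without its top 5 cells), Skap1 (0.66) and Cd3d (0.54) were higher and none lower, with a median of 0.49. At the same cluster mix 5 were higher, with a median of 0.54. Without cells holding a CD3 or Trac UMI Thy1 stood at 2.27 and Lag3 at 1.24. The 12 B cell markers summed to 52.7 and 71.2 CPM. Lyz2 and Apoe, like cluster 15, were higher in BFP-RFP+ cells, and their part in the results on those 2 genes was not tested. In a summed profile, fewer cells expressing a gene and less RNA per cell cannot be told apart, except where shares of cells are given.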

How the data were processed

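The mRNA, antibody tag and hashtag libraries of 1 capture were read from 1 matrix of raw UMI counts, deposited by the authors unnormalized, with 6079 barcodes and 22548 genes besides the 4 tags and 4 hashtags. Per the file headers it was written by Cell Ranger 7.0.0, and the submitters' processing notes name GRCm39 (mm39). The cell calling step is not given in the sources used here. Coordinates were not needed and none are printed.

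Barcodes without a hashtag of 80% or more (699, 11.5%) were left out, which removes doublets between populations only where no hashtag reaches 80%. Doublets within a population were not called or removed. Counts were summed per population, and ratios used a pseudocount of 0.5 UMI. Exact intervals were computed, by Poisson limits for CPM, from the binomial split of UMIs for log2 ratios, and by Clopper-Pearson limits for shares of cells. The ratio script was tested on simulated data. No duplicate barcodes were found.

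Clusters came from scanpy 1.11.5 (2000 variable genes, 30 components, 15 neighbours, Leiden resolution 1), leaving out 2936 genes. A cluster was named from at least 3 markers at 1 or more in log2 ratio and in 20% or more of its cells. The resolution and these thresholds were set after the data had been seen, because resolution 0.5 merged macrophage-like cells with cells of high Cd209a.

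Named genes were the 15 highest and 15 lowest ratios with at least 200 UMIs in the dendritic cell clusters, and the 12 highest and lowest with at least 2000, leaving out reporters, unnamed models, mitochondrial, ribosomal and antigen receptor genes and genes with over 10% of UMIs in 5 cells. Members of the gene lists may also be named. The members, lists and rules were chosen with earlier results of these data known. Alternatives used other cell and gene filters, weights and cluster sets, and TMM scaling (edgeR 4.0.16).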

Additional observations from a re-analysis of the deposited data

How the results depend on the processing

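The count of genes higher by 0.5 or more (501) and lower by as much (375) became 260 and 214 in dendritic cell clusters with the same mix of clusters, 1047 and 786 with a minimum of 20 UMIs, and 150 and 132 with a minimum of 500 UMIs, where fewer or more genes were counted. At Leiden resolution 0.5, which calls fewer cells dendritic, 307 genes were higher. The other 12 alternatives for the higher and 13 for the lower count stayed within 1.5 times.

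The ratio of CD11b means in all kept cells (0.22) was 0.18 with 90% hashtag purity, 0.14 with at least 1000 genes, 0.23 with at most 5% mitochondrial UMIs, 0.0489 without the 5% of cells with the most mRNA UMIs, -0.0205 in dendritic cell clusters only, -0.00285 with the same cluster mix, 0.15 as a share of all 4 tags and -0.52 by medians. In the same order of those that moved it, CD8a (0.64) was 0.65 with purity, 0.66 with mitochondrial UMIs, 0.62 without the deepest cells, 0.68 in dendritic cell clusters, 0.39 with the same mix, 0.57 as a share and 0.66 by medians. CD172a (-0.11) was -0.12 with mitochondrial UMIs, -0.16 without the deepest cells, -0.0743 in dendritic cell clusters, -0.0734 with the same mix, -0.17 as a share and -0.39 by medians. CD301b (-0.41) was -0.37 with purity, -0.37 with mitochondrial UMIs, -0.47 without the deepest cells, -0.33 in dendritic cell clusters, -0.35 with the same mix, -0.48 as a share and -0.43 by medians.

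Some genes of the lists changed direction. Without the 5 cells with the most UMIs this held for Trbc1 (-0.31), Jchain (0.58), Ly6c2 (0.32), Pecam1 (0.0101), Ccl24 (-0.38), Cxcl2 (0.23), Lef1 (-0.41) and Negr1 (0.49). It held with the same cluster mix for Wdfy4 (-0.0246), Cd209a (-0.45), H2-Ob (-0.14), and the median of the lists type 1 conventional dendritic cell (-0.0246) and CD11b-positive type 2 conventional dendritic cell (-0.0620). In all kept cells it held for Lyz2 (-0.11), Ikzf2 (0.44) and Ccl4 (-0.19), at resolution 0.5 for Skap1 (-0.0794), without cells holding a CD3 or Trac UMI for Chl1 (-0.11), and with the same weight for each cell for Rrm2 (0.0593). The cause was not tested. All 48 named genes kept their direction and passed 0.5 under the other alternatives that counted them. With the same cluster mix 28 did so. Some of the other alternatives could hardly have changed this result. A minimum of UMIs sets which genes are counted, not their ratios. The shift by TMM was 0.004 and the median gene lay at -0.01, while the named ratio smallest in size was -0.64 (H2-M2). Named genes had at most 10% of their UMIs in 5 cells, so leaving out 5 cells was a weak test of them.

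No paired analysis was possible because 1 sample stands for either population. Resolution 0.5, clusters made without genes of 0.5 or more, and leaving out cells with CD3 or Trac UMIs were chosen after the data had been seen. The same cluster mix was not recomputed with the clusters made without genes of 0.5 or more. Scaling hardly mattered, since the median gene lay at -0.01. With 1 capture, differences between populations cannot be told apart from differences between sorts.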

Other observations

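Further gene groups were measured in the dendritic cell clusters, given here as values of BFP-RFP+ and then BFP-RFP- cells. Of 18 genes of glycolysis and the hypoxia response 2 were higher by 0.5 or more and none lower, with a median log2 ratio of 0.19, and 0.02 with the same cluster mix. Gapdh, a glycolytic enzyme, stood at 1069 and 782 CPM (0.45, 0.42 to 0.49) and was higher in 12 of 13 clusters, and Ldha, lactate dehydrogenase A, stood at 109 and 76.3 CPM (0.51, 0.40 to 0.62). Of 14 genes linked to tolerance 3 were higher, with a median of 0.20, among them Lgals3, a galectin, at 382 and 267 CPM (0.52, 0.46 to 0.58), which stood at 0.63 with the same cluster mix. Il4i1, an amino acid oxidase of the same list, stood at 843 and 654 CPM (0.37, 0.33 to 0.41) and was higher in 12 of 13 clusters.

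Of 19 lysosomal hydrolases none was higher and 1 lower, with a median of -0.11, and Psap, the saposin precursor, stood at 246 and 335 CPM (-0.44, -0.51 to -0.38). Of 11 Toll-like and nucleic acid receptor genes none was higher and 1 lower, Unc93b1, which carries nucleic acid-sensing receptors to endosomes, at 24.7 and 37.8 CPM (-0.61, -0.81 to -0.42). Coro1a and Cotl1, actin-binding proteins, stood at 0.44 and 0.47, and were higher in 11 and 10 of 13 clusters.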
